A study of Mus musculus with 4 samples.

Results

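The Adamts, Mmp and Timp genes encode the main secreted and membrane-bound proteases that cut the extracellular matrix, together with their tissue inhibitors. All genes with a numbered *Adamts* or *Mmp* symbol, and *Timp1* to *Timp4*, were taken, which gave 46 of the 22096 gene symbols measured, namely 19 *Adamts*, 23 *Mmp* and 4 *Timp* genes. RNA-seq had been carried out on palatal mesenchyme of 4 mouse embryos of mixed background at embryonic day 13.5 (E13.5), when the palatal shelves are growing on both sides of the tongue. There were 2 *Foxf2*-/-*Osr2*RFP/+ embryos, 1 *Foxf2*+/-*Osr2*RFP/+ control and 1 *Osr2*RFP/+ control that was *Foxf2*+/+, so neither control genotype had a replicate. Any p-value rests only on the spread between these embryos, which the test took in part from other genes of similar level. *Foxf2* encodes a forkhead transcription factor of the palatal mesenchyme and was inactivated in the whole embryo, not in the palate alone, and the *Osr2*RFP knock-in allele, which puts a red fluorescent reporter under control of the *Osr2* locus, was carried by all 4 embryos, the controls included. RFP+ cells of the dissected, trypsin-treated palatal shelves were sorted, so the values describe *Osr2*-expressing cells and not the whole shelf.

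ADAMTS and MMP proteins are zinc-dependent proteases that are made as inactive precursors. The ADAMTS proteases of the proteoglycanase group (*Adamts1*, *Adamts4*, *Adamts5*, *Adamts8*, *Adamts9*, *Adamts15* and *Adamts20*) cut versican and related proteoglycans, and in mice a reduced dose of *Adamts9* on top of *Adamts20* loss leads to cleft palate. MMPs cut collagens, gelatin and many other matrix and cell surface proteins, and TIMPs bind to the active site and block it. The comparison asked which of these genes differed between *Foxf2*-/- palatal mesenchyme and each control. Levels are given as FPKM (fragments mapped to a transcript, per kilobase of its length and scaled for library size), which are per length and can be set side by side between genes. In these sorted bulk samples fewer cells that express a gene and less RNA per cell cannot be told apart.

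The zinc site that defines the proteases was read from the annotated coding transcripts (GENCODE M1 on NCBIM37, the same build as mm9) and is shown for *Adamts9* and the other proteoglycanase genes, for *Adamts17* and *Adamts2* as examples of the remaining *Adamts* genes, for the 4 most abundant *Mmp* genes, and for *Mmp23* and *Mmp17*, which were lower in the *Foxf2*-/- embryos. The site of *Adamts19* is not printed here. Each stretch is 36 bases, or 12 codons, written 5′ to 3′. Capitals mark the codons of the 3 histidines that hold the zinc ion and of the glutamate beside the first one, and the last codon is the one after the third histidine. Coordinates run from the first to the last base of the site, introns included, and exons are numbered in the transcript with the longest coding sequence that holds the site.
*Adamts9* (chr6:92855276-92858487, minus strand, exons 8 and 9 of 40): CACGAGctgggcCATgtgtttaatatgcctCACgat
*Adamts1* (chr16:85799433-85799790, minus strand, exons 3 and 4 of 9): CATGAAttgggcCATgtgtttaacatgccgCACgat
*Adamts15* (chr9:30718837-30719275, minus strand, exons 2 and 3 of 8): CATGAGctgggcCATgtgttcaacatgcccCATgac
*Adamts4* (chr1:173183341-173184049, plus strand, exons 3 and 4 of 9): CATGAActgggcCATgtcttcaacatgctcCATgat
*Adamts20* (chr15:94184106-94185727, minus strand, exons 8 and 9 of 39): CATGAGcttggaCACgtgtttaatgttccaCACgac
*Adamts8* (chr9:30760306-30760966, plus strand, exons 3 and 4 of 9): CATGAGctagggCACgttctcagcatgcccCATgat
*Adamts5* (chr16:85878257-85888071, minus strand, exons 2 and 3 of 8): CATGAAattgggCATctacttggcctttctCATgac
*Adamts17* (chr7:74113784-74147362, plus strand, exons 8 and 9 of 23): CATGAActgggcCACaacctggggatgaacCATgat
*Adamts2* (chr11:50588905-50589639, plus strand, exons 7 and 8 of 22): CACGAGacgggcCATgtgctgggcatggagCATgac
*Mmp2* (chr8:95363178-95363213, plus strand, exon 8 of 13): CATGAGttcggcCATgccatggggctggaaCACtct
*Mmp14* (chr14:55056464-55056499, plus strand, exon 5 of 10): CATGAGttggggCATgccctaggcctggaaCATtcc
*Mmp11* (chr10:75389673-75389708, minus strand, exon 5 of 8): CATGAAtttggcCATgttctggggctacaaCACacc
*Mmp16* (chr4:17978895-17978930, plus strand, exon 5 of 10): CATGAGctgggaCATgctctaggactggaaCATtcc
*Mmp23* (chr4:155025634-155025669, minus strand, exon 5 of 8): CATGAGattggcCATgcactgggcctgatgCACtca
*Mmp17* (chr5:130102472-130102507, plus strand, exon 5 of 10): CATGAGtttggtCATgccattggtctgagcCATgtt

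The site was found in 42 of the 46 genes, which are all 19 *Adamts* and all 23 *Mmp* genes, and in none of the 4 *Timp* genes. Both classes could be told apart by what follows the third histidine. An aspartate codon came next in 19 of 19 *Adamts* genes and in 0 of 23 *Mmp* genes, and a serine codon came next in 20 *Mmp* genes. The 8th codon of the stretch was asparagine in 5 *Adamts* genes, all of the proteoglycanase group (*Adamts1*, *Adamts4*, *Adamts9*, *Adamts15* and *Adamts20*), serine in *Adamts8*, and glycine in 13 *Adamts* and all 23 *Mmp* genes, among them *Adamts5*, the remaining proteoglycanase. The stretch of *Adamts9* shared 31 of 36 bases with *Adamts1*, 30 with *Adamts15*, and 28 each with *Adamts4* and *Adamts20*, against 20 with *Mmp2*. The reading frame was interrupted by an intron within the site in all 19 *Adamts* genes and in 0 of the 23 *Mmp* genes.

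Of the 46 genes, 38 had an FPKM above 0 in at least 1 embryo, and 24 had a mean over the 4 embryos of at least 1 FPKM and were tested among 11154 genes. These were 14 *Adamts*, 7 *Mmp* and 3 *Timp* genes. A mean over 10 FPKM was reached by 7 genes. *Mmp2*, *Timp2*, *Mmp14* and *Mmp11* headed the list and lay above 98.3%, 97.6%, 97.0% and 96.3% of all genes, respectively. The plot of levels shows these genes well apart from most of the *Adamts* genes, of which those tested lay between 0.908 and 17.0 FPKM.

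**Figure D1:**
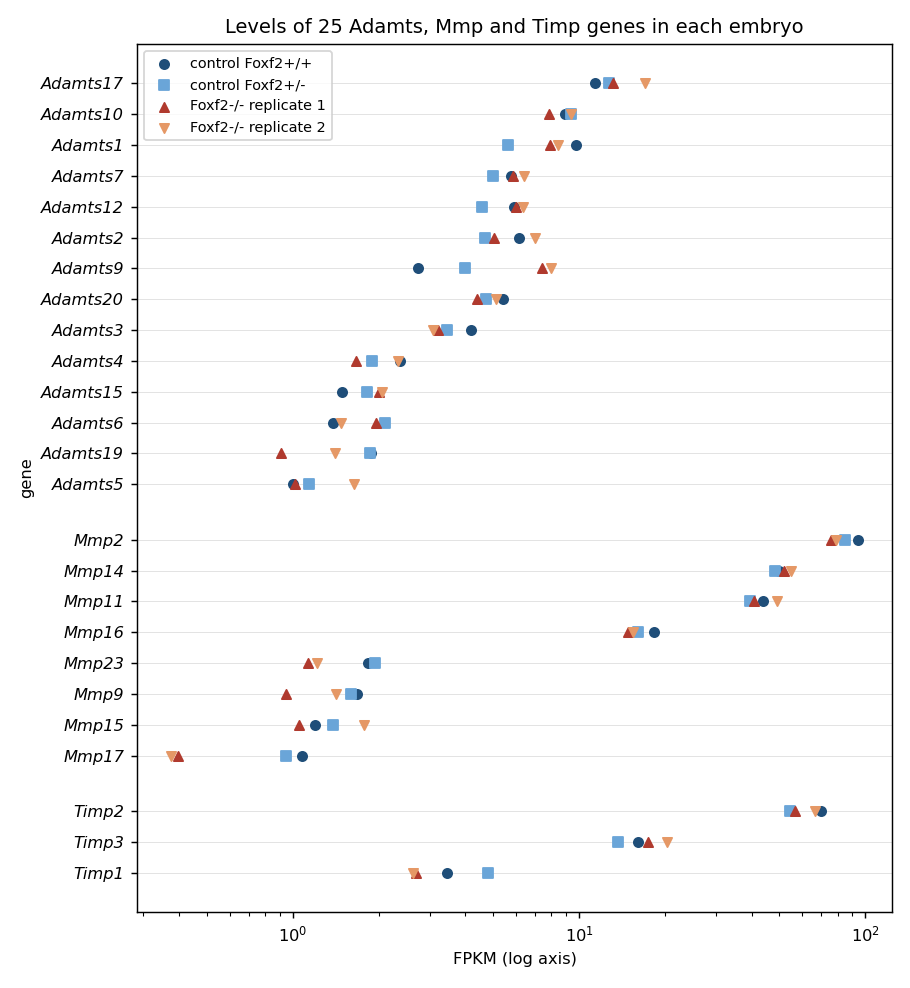
FPKM on a log axis of the 24 genes with a mean of at least 1 FPKM and of *Mmp17*, with 1 point for each embryo (blue, controls, and red or orange, *Foxf2*-/-). The *Adamts9* points of the *Foxf2*-/- embryos lie to the right of both controls, those of *Mmp17* and *Mmp23* lie to the left, and the points of most other genes are interleaved or close.

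The first measure was a fold criterion. The *Foxf2*-/- mean of log2(FPKM + 0.1) had to lie over 1.5-fold above, or over 1.5-fold below, each of the controls taken by itself. This criterion carries no p-value. It was met by 1 member that was higher (*Adamts9*) and 2 that were lower (*Adamts19* and *Mmp23*) of the 24, beside 1.4% of all 11154 genes in either direction, 0.717% higher and 0.681% lower. The second test was limma with Benjamini-Hochberg adjustment over all 11154 genes, which called a gene if the adjusted p was under 0.05 and the fold exceeded 1.5. It called 0 members and 7 genes in all, or 0.0628%. At an unadjusted p under 0.05 limma gave 5 of the 24 members (*Adamts9*, *Timp1*, *Mmp23*, *Timp3* and *Adamts19*) and 1452 of all 11154 genes. Such a p was thus common among all genes, and these 5 members are not read as calls. In the plot of differences against each control, *Adamts9* stands alone at the upper right, while the other 23 genes lie around the middle or at the lower left.

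**Figure D2:**
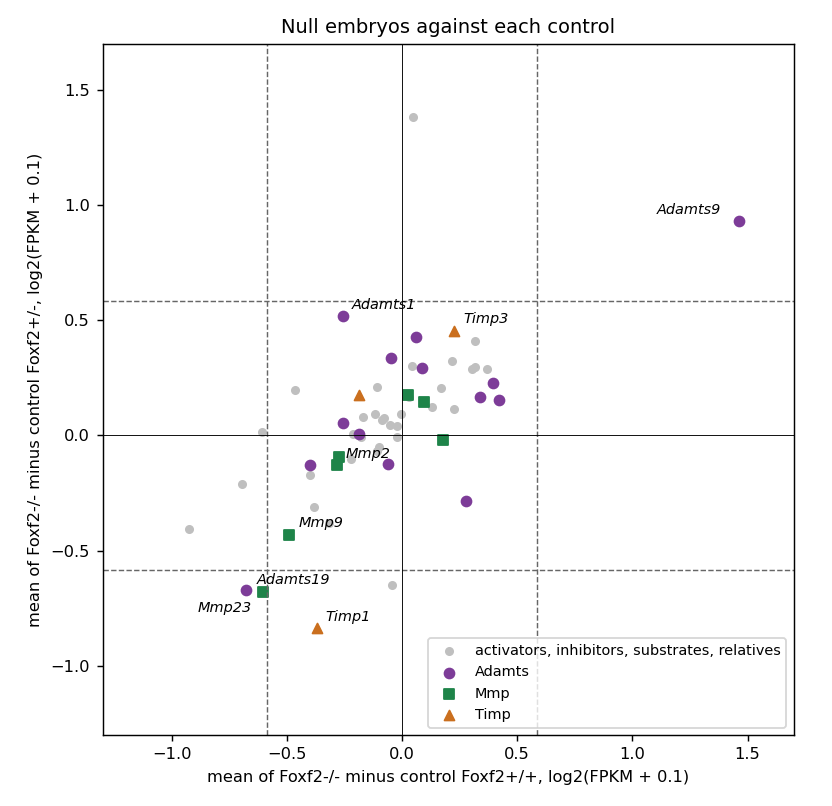
Difference between the mean of the *Foxf2*-/- embryos and the *Foxf2*+/+ control (x axis) or the *Foxf2*+/- control (y axis), in log2(FPKM + 0.1), for the 24 tested members and for tested genes of their activators, inhibitors, substrates and relatives (grey). Dashed lines mark 1.5-fold; *Adamts9* is the only member beyond both lines at the upper right, and *Adamts19* and *Mmp23* are beyond both at the lower left.

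*Adamts9*, a versican-cleaving protease, differed most. Its FPKM was 2.72 in the *Foxf2*+/+ control and 3.99 in the *Foxf2*+/- control, against 7.41 and 7.98 in the *Foxf2*-/- embryos. Both *Foxf2*-/- embryos were thus above both controls, and the *Foxf2*+/- value lay between those of the other genotypes. The controls averaged 3.35 ± 0.893 FPKM (SD, n = 2), and the *Foxf2*-/- embryos averaged 7.70 ± 0.399 FPKM (SD, n = 2). On the log2(FPKM + 0.1) scale the *Foxf2*-/- mean was 1.46 above the *Foxf2*+/+ control and 0.93 above the *Foxf2*+/- control, or 2.76-fold and 1.91-fold. Against both controls together the difference was 1.20 (SE 0.18) and did not pass limma (adjusted p = 0.109). Among all genes tested, 37 had a larger positive difference and 21 a smaller p. With all 4 embryos, either in 2 groups or with the number of null alleles as a linear term, the limma adjusted p of *Adamts9* ran from 0.032 to 0.364. Within these settings it passed only with the linear term, which called 15 of all genes against 7 in the main fit. It also passed limma without the *Foxf2*+/- control (log2 difference 1.46) and with a mean for each genotype (1.20). In both of these, only the *Foxf2*-/- pair gave a spread within a group. An exact permutation test of 2 against 2 embryos cannot give a two-sided p below 0.333.

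Within its class, *Adamts9* ranked 9th and 8th of the 19 *Adamts* genes in the *Foxf2*+/+ and *Foxf2*+/- controls and 4th in both *Foxf2*-/- embryos. It made up 3.93% and 6.22% of the summed *Adamts* FPKM in the controls against 10.7% and 9.82% in the *Foxf2*-/- embryos. Of the summed FPKM of the 7 proteoglycanase genes it made up 11.9%, 20.5%, 30.1% and 28.6% in the same order of embryos. The FPKM ratio of *Adamts9* to *Adamts1*, the most abundant gene of that group, was 0.279 and 0.704 in the controls against 0.939 and 0.947 in the *Foxf2*-/- embryos. This ratio moved with both genes, since *Adamts1* itself was at 9.76 and 5.66 FPKM in the controls. The *Adamts9* value also covers only part of its gene, so a ratio near 1 does not show equal levels.

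The entry measured for *Adamts9* covers only part of the gene. In the mm9 annotation *Adamts9* runs from 92722693 to 92893486 on chromosome 6 (minus strand), and its longest coding transcript has 40 exons and 8016 bases. The deposited entry spans 92722693 to 92851435 and has 6036 bases, so the exons that hold the zinc site printed above, exons 8 and 9, are outside it. It was the only one of the 42 genes with a site of which this was so. Its FPKM therefore describes the 3′ part of the gene, and transcripts that carry the catalytic exons were not measured separately.

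None of the other 6 proteoglycanase genes met the 1.5-fold criterion. *Adamts1*, the first member of the family described, was at 9.76 and 5.66 FPKM in the *Foxf2*+/+ and *Foxf2*+/- controls and at 7.89 and 8.43 FPKM in the *Foxf2*-/- embryos. *Adamts20*, the partner of *Adamts9* in palate closure, was at 5.41, 4.71, 4.39 and 5.11 FPKM, listed alike. In both genes the *Foxf2*-/- values lay within or across the control values. The aggrecanases *Adamts4* (2.36, 1.88, 1.65 and 2.32 FPKM) and *Adamts5* (1.0, 1.14, 1.02 and 1.63 FPKM) overlapped between genotypes as well. *Adamts15*, a versicanase, was at 1.49 and 1.81 FPKM in the controls against 2.00 and 2.05 FPKM in the *Foxf2*-/- embryos. The *Adamts15* groups did not overlap, but the log2 difference was 0.29 (SE 0.18, limma adjusted p = 0.544). *Adamts8*, which was too low to be tested, was at 0.109 and 0.249 FPKM in the controls against 0.273 and 0.359 FPKM in the *Foxf2*-/- embryos. Its groups did not overlap either, with a log2(FPKM + 0.1) difference of 0.62, but the *Foxf2*+/- control and the nearest *Foxf2*-/- embryo were almost equal. *Adamts1* lies beside *Adamts5* on chromosome 16 and *Adamts15* beside *Adamts8* on chromosome 9, each pair within 200 kb.

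Other groups of *Adamts* genes were measured. The procollagen N-proteinases, which remove the amino-terminal propeptide of fibrillar procollagens, were represented by *Adamts2* (6.14, 4.67, 5.03 and 6.99 FPKM), *Adamts3* (4.20, 3.45, 3.21 and 3.09 FPKM) and *Adamts14* (0.733, 0.592, 0.582 and 0.825 FPKM), always in the order *Foxf2*+/+, *Foxf2*+/- and the 2 *Foxf2*-/- embryos. *Adamts3* was lower in both *Foxf2*-/- embryos than in both controls, by 0.26 on the log2 scale (SE 0.14, limma adjusted p = 0.482), and the other two overlapped between genotypes. *Adamts7* (5.79, 5.0, 5.88 and 6.41 FPKM) and *Adamts12* (5.93, 4.57, 6.03 and 6.35 FPKM), which cut cartilage oligomeric matrix protein, were above both controls in both *Foxf2*-/- embryos. Their log2 differences were only 0.19 (SE 0.12) and 0.24 (SE 0.14), with limma adjusted p-values of 0.554 and 0.511. The fibrillin-binding *Adamts10* (8.94, 9.36, 7.83 and 9.38 FPKM) and *Adamts6* (1.38, 2.09, 1.95 and 1.47 FPKM) did not separate the genotypes.

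*Adamts17*, whose product is linked to fibrillin microfibrils and eye development, had the highest level of the 19 *Adamts* genes. Its FPKM was 11.3 and 12.7 in the controls against 13.1 and 17.0 in the *Foxf2*-/- embryos. The groups did not overlap, although the nearest values differed by little and the log2 difference was 0.31 (SE 0.14, limma adjusted p = 0.401). *Adamts19*, known for a role in heart valves, was at 1.87 and 1.86 FPKM in the controls against 0.908 and 1.40 FPKM in the *Foxf2*-/- embryos. Both *Foxf2*-/- values were below the controls, which were nearly equal, but the *Foxf2*-/- embryos differed between themselves. The log2 difference was -0.68 (SE 0.24, limma adjusted p = 0.335), or 1.60-fold below the *Foxf2*+/+ and 1.59-fold below the *Foxf2*+/- control. Without *Foxf2*-/- replicate 1 the log2 difference of *Adamts19* was -0.39.

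The *Mmp* signal came almost entirely from 4 genes. *Mmp2*, gelatinase A, was at 94.3 and 84.7 FPKM in the controls against 76.1 and 78.8 FPKM in the *Foxf2*-/- embryos. *Mmp14*, a membrane-type protease that activates the MMP2 precursor, was at 49.9, 48.2, 51.8 and 55.1 FPKM in the order used above. *Mmp11*, stromelysin 3, was at 43.8, 39.5, 40.7 and 48.9 FPKM. *Mmp16*, another membrane-type protease, was at 18.2 and 16.1 FPKM in the controls against 14.8 and 15.4 FPKM in the *Foxf2*-/- embryos. *Mmp2* and *Mmp16* were lower and *Mmp14* was higher in both *Foxf2*-/- embryos than in both controls, each by a small amount, while *Mmp11* overlapped. Their log2 differences were -0.21 for *Mmp2*, -0.18 for *Mmp16*, 0.12 for *Mmp14* and 0.10 for *Mmp11*, with limma adjusted p-values between 0.395 and 0.746. Together these 4 genes made up 97.0%, 96.6%, 97.8% and 97.4% of the summed *Mmp* FPKM. The plot of class make-up shows how little the bars of the embryos differ in this respect.

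**Figure D3:**
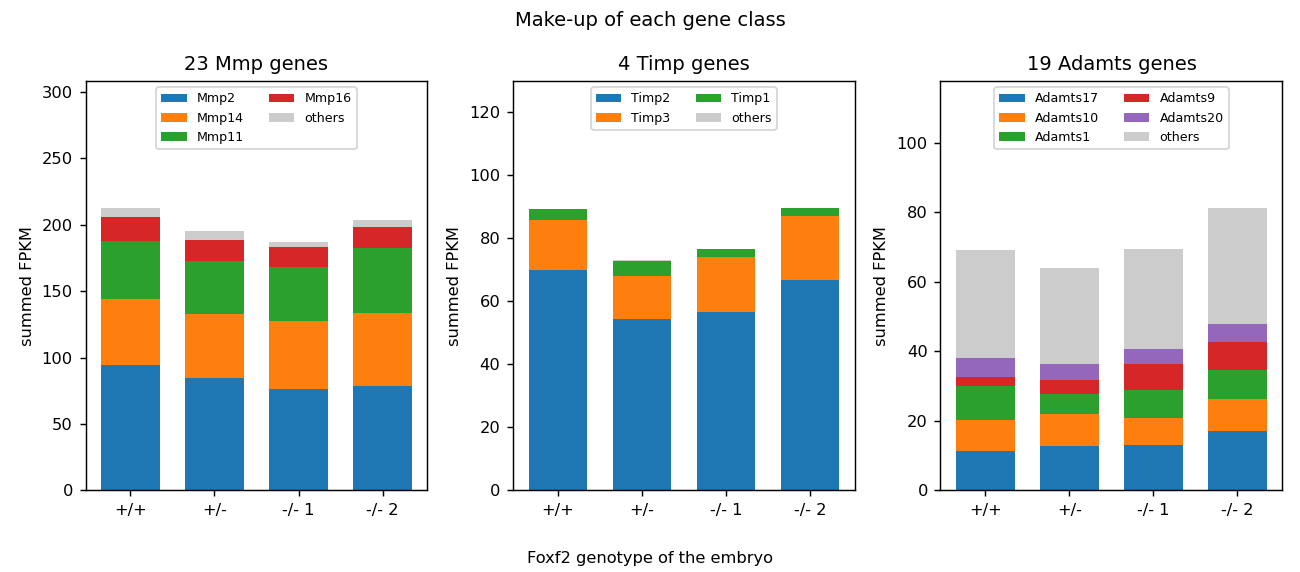
Summed FPKM of the 23 *Mmp*, 4 *Timp* and 19 *Adamts* genes in each embryo, stacked by gene, with axes that start at 0. *Mmp2*, *Mmp14*, *Mmp11* and *Mmp16* fill over 96% of each *Mmp* bar and *Timp2* over 73% of each *Timp* bar, while the *Adamts9* segment is 2.72 and 3.99 FPKM in the controls against 7.41 and 7.98 FPKM in the *Foxf2*-/- embryos.

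The remaining *Mmp* genes above 1 FPKM were *Mmp23*, *Mmp9* and *Mmp15*. *Mmp23*, a small membrane-tethered protease of chromosome 4 (155024764 to 155027493, minus strand), was at 1.83 and 1.93 FPKM in the controls against 1.13 and 1.21 FPKM in the *Foxf2*-/- embryos. Both pairs were tight, with means of 1.88 ± 0.0721 and 1.17 ± 0.0571 (SD, n = 2 each), and they did not overlap. The log2 difference of *Mmp23* was -0.64 (SE 0.19) and was not called by limma (adjusted p = 0.299), and the gene was 1.52-fold below the *Foxf2*+/+ and 1.60-fold below the *Foxf2*+/- control, which is just past the 1.5-fold limit. Neither *Mmp23* nor *Adamts19* met the limit without *Foxf2*-/- replicate 1 or after rescaling of the embryos, which moved their log2 differences to -0.57 and -0.60. *Mmp9*, gelatinase B, was lower in both *Foxf2*-/- embryos (0.946 and 1.41 FPKM) than in the controls (1.67 and 1.59 FPKM), with a log2 difference of -0.46 (SE 0.24, limma adjusted p = 0.47). *Mmp9* is also made by macrophages, whose 6 listed markers summed to 7.97 and 11.7 FPKM in the controls against 8.78 and 12.7 FPKM in the *Foxf2*-/- embryos. These markers differed among themselves. *Aif1* was lower in both *Foxf2*-/- embryos (0.748, 0.734, 0.430 and 0.607 FPKM), *Csf1r* was higher in both (1.91, 2.50, 2.56 and 2.97 FPKM), and the others overlapped. The part of macrophages in the *Mmp9* values was not tested. *Mmp15*, a membrane-type protease, was at 1.20, 1.38, 1.05 and 1.76 FPKM and overlapped between genotypes.

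Another 22 members had a mean below 1 FPKM, and 8 of them were listed at 0 in all 4 embryos. The highest of the 22 was *Mmp17*, which encodes a protease tied to the cell surface by a lipid anchor and lies on the plus strand of chromosome 5, from 130090089 to 130114086. Its FPKM was 1.07 and 0.949 in the controls against 0.397 and 0.375 in the *Foxf2*-/- embryos, the largest decrease on the log2(FPKM + 0.1) scale among the 38 members detected. No value of one genotype group came near those of the other. The *Foxf2*-/- mean of *Mmp17* was 2.42-fold below the *Foxf2*+/+ and 2.16-fold below the *Foxf2*+/- control on the log2(FPKM + 0.1) scale. Because its mean was 0.699 FPKM it was not tested, and its estimated coverage was only 0.552 and 0.582 reads per base in the *Foxf2*-/- embryos. Without the filter on low values 3.72% of 17171 genes met the same criterion. *Adamts18*, an ADAMTS protease outside the groups above, also met it, with 0.0699 and 0.209 FPKM in the controls against 0.386 and 0.396 FPKM in the *Foxf2*-/- embryos, all under 0.5 FPKM. *Mmp19* was at 0.299, 0.444, 0.257 and 0.35 FPKM, with no order by genotype. It shares 789 bases of its span with *1110012D08Rik* on the opposite strand, which had a mean of 4.20 FPKM, and the library kit keeps no strand, so the reads of that stretch cannot be assigned to either gene.

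**Figure D4:**
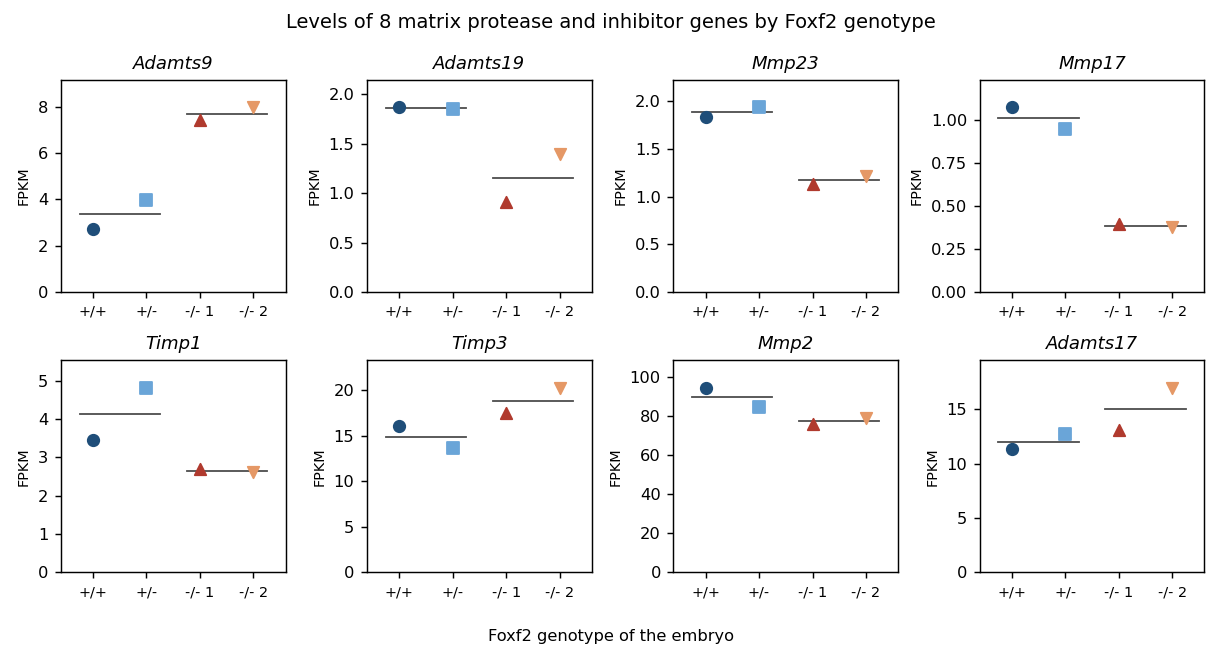
FPKM by *Foxf2* genotype of 8 genes on linear axes that start at 0, with 1 point for each embryo and a line at the mean of each pair. The *Foxf2*-/- points are above both controls for *Adamts9*, *Timp3* and *Adamts17* and below both controls for *Adamts19*, *Mmp23*, *Mmp17*, *Timp1* and *Mmp2*, with gaps that are wide in *Adamts9* and *Mmp17* and narrow in *Adamts17* and *Mmp2*.

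The MMPs of the chromosome 9 cluster were at or near 0 in these cells. A cluster of 10 genes on chromosome 9 (*Mmp13*, *Mmp12*, *Mmp1b*, *Mmp3*, *Mmp1a*, *Mmp10*, *Mmp8*, *Mmp27*, *Mmp20* and *Mmp7*, from 7272514 to 7699416 of mm9) holds all 4 mouse genes of the collagenase group listed here, 2 stromelysins, and the proteases of macrophages and tooth enamel. Of these 10 genes, 8 were listed at 0 in every embryo, and no value in the cluster exceeded 0.0329 FPKM. *Mmp8* was at 0 in the controls against 0.0123 and 0.0329 FPKM in the *Foxf2*-/- embryos, and *Mmp3* was above 0 in 1 control. No fold can be given against a value of 0 without read counts. The other members under 0.2 FPKM in every embryo were *Mmp28*, *Mmp25*, *Mmp21*, *Adamts16*, *Adamts13*, *Mmp24* and *Timp4*.

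The inhibitors were led by *Timp2*, which blocks MMPs and is also needed to activate the MMP2 precursor on MMP14. *Timp2* was at 69.8 and 54.3 FPKM in the controls against 56.5 and 66.6 FPKM in the *Foxf2*-/- embryos, so the controls spanned both *Foxf2*-/- values (log2 difference -0.0047, SE 0.14, limma adjusted p = 0.993, and of the opposite sign after rescaling). *Timp3*, which binds to the matrix and inhibits several ADAMTS proteases, was at 16 and 13.7 FPKM in the controls against 17.4 and 20.2 FPKM in the *Foxf2*-/- embryos. Its groups did not overlap, and its log2 difference was 0.34 (SE 0.12, limma adjusted p = 0.335). *Timp1* was at 3.46 and 4.81 FPKM in the controls against 2.69 and 2.62 FPKM in the *Foxf2*-/- embryos. It was lower in both *Foxf2*-/- embryos, by 0.60 on the log2 scale (SE 0.18, limma adjusted p = 0.296), and missed the criterion because it was only 1.29-fold below the *Foxf2*+/+ control. *Timp1*, *Timp3* and *Timp4* lie within the synapsin genes *Syn1*, *Syn3* and *Syn2*, on the opposite strand, and *Timp2* overlaps *BC100451* on the same strand. The library kit keeps no strand, so reads of such pairs cannot be told apart where they overlap. The partners were low, at means of 0.316 FPKM for *Syn1*, 2.14 FPKM for *Syn3* and 0.789 FPKM for *BC100451*. The ratio of the summed *Timp* to the summed *Mmp* FPKM was 0.420 and 0.374 in the controls against 0.409 and 0.440 in the *Foxf2*-/- embryos, which is an overlap.

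The 24 tested members were split evenly by direction, which all genes as deposited were not. In 7 of them both *Foxf2*-/- embryos were above both controls (*Adamts7*, *Adamts9*, *Adamts12*, *Adamts15*, *Adamts17*, *Mmp14* and *Timp3*), in 7 both were below (*Adamts3*, *Adamts19*, *Mmp2*, *Mmp9*, *Mmp16*, *Mmp23* and *Timp1*), and in 10 the groups overlapped. Over all 11154 genes 9.89% were above and 35.8% below, and after rescaling of the embryos by median ratios these shares were 20.9% and 21.5%, with 8 members above and 7 below. As deposited, the median log2 difference was 0.038 over the members and -0.081 over all genes. Rescaling moved the median of all genes to -0.0012 and shifted members upward too (*Mmp2* from -0.21 to -0.13). The values 0.038 and -0.0012 are therefore not on the same scale. In the same way, 51.3% of all genes that met the 1.5-fold criterion were higher as deposited and 64.8% after rescaling. A log2 difference smaller than 0.5 in size was found for 20 of the 24, and the median SE of the members was 0.16.

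Genes that act with these proteases were described from lists chosen for their roles. Of 20 activators, inhibitors and ADAMTS-like genes 10 were tested, of 16 matrix substrates 12 were tested, and of 14 related ADAM and tolloid proteases 11 were tested. No gene of any of the 3 lists met the 1.5-fold criterion or was called by limma. Their median log2 differences were 0.021, -0.0052 and -0.076. The activator and inhibitor list was headed by *Bsg*, an inducer of MMP synthesis (94.5, 83.9, 78.2 and 89.0 FPKM), *Serpine2*, a serine protease inhibitor (61.5, 57.5, 57.6 and 65.4 FPKM), and *Reck*, a membrane-bound MMP inhibitor (19, 17.5, 15.5 and 17.0 FPKM). *Bsg* and *Serpine2* overlapped between genotypes, and *Reck* was slightly lower in both *Foxf2*-/- embryos. *Furin*, which removes the propeptide of many of these proteases, was at 7.75 and 7.22 FPKM in the controls against 6.94 and 8.03 FPKM in the *Foxf2*-/- embryos.

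The substrates were headed by the fibrillar collagens *Col1a2* (370, 310, 314 and 343 FPKM), *Col3a1* (381, 272, 222 and 249 FPKM) and *Col1a1* (272, 227, 257 and 304 FPKM). *Col3a1* was lower in both *Foxf2*-/- embryos, by 0.45 on the log2 scale (limma adjusted p = 0.335), although its controls differed widely. *Vcan*, which encodes versican, the substrate of the *Adamts9* product, was at 154 and 156 FPKM in the controls against 211 and 175 FPKM in the *Foxf2*-/- embryos. Its *Foxf2*-/- values were thus above both controls, with a log2 difference of 0.31 that limma did not call (adjusted p = 0.335). The lowest adjusted p of the substrates was that of *Tnc*, which encodes tenascin C, at 63.8 and 44.3 FPKM in the controls against 35.4 and 31.7 FPKM in the *Foxf2*-/- embryos. Both of its *Foxf2*-/- values were below both controls (log2 difference -0.67, SE 0.16, limma adjusted p = 0.241). The related proteases were headed by *Bmp1*, the procollagen C-proteinase (29.0, 24.8, 20.4 and 23.7 FPKM), *Adam19* (12.1, 11.7, 10.8 and 11.8 FPKM) and *Adam17* (10.1, 9.84, 9.11 and 9.65 FPKM), both membrane-anchored sheddases, and none was called. *Bmp1* and *Adam17* were lower in both *Foxf2*-/- embryos and *Adam19* overlapped.

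The labels and the cells were checked on other genes. *Foxf2* was at 85.4 FPKM in the *Foxf2*+/+ control, 45.1 FPKM in the *Foxf2*+/- control and 1.41 and 2.28 FPKM in the *Foxf2*-/- embryos (log2 difference -5.03, limma adjusted p = 0.0053). All 6 palatal mesenchyme markers were tested and none was called. Of these, 1 was above and 3 were below both controls in both *Foxf2*-/- embryos, beside 9.89% and 35.8% of all genes. All markers of endothelium and of skeletal muscle were under 1 FPKM in every embryo. The 5 epithelial markers summed to 3.37 and 4.38 FPKM in the controls against 3.84 and 5.59 FPKM in the *Foxf2*-/- embryos, which overlap. The 5 endothelial markers summed to 0.404 and 0.608 FPKM in the controls against 0.893 and 1.5 FPKM in the *Foxf2*-/- embryos, in the same order as *Adamts9* but below it in every embryo. The 7 erythroid markers summed to 171 and 1118 FPKM in the controls against 903 and 2386 FPKM in the *Foxf2*-/- embryos, so these markers differed between libraries, and 1 of them (*Hbb-b1*) met the 1.5-fold criterion. The 4 neural and glial markers summed to 3.20, 5.15, 5.26 and 5.45 FPKM, again in the order of *Adamts9*, and the 6 skeletal muscle markers to 0.894 and 0.959 FPKM in the controls against 0.438 and 0.45 FPKM in the *Foxf2*-/- embryos, lower in both. The part of any of these cell types in the differences of *Adamts9*, *Adamts19*, *Mmp23* and *Mmp17* was not tested. Relative library depth, from the ratio of deposited coverage to FPKM, ranged up to 1.19 with the *Foxf2*+/+ library set to 1, and the depth in reads is unknown.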

How the data were processed

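Sorted RFP+ palatal mesenchyme of 4 E13.5 littermate embryos was sequenced by the study with an Illumina Nextera kit, single-end, and aligned by the authors to mm9 with Tophat and Bowtie (Bowtie 0.12.7 in the submitters' processing notes). The deposited values are FPKM for each of 28107 RefSeq entries, 1 table per embryo, in the layout that Cufflinks writes, and the deposited coverage is the authors' estimated mean read depth over an entry. The version and options of the FPKM estimation are not given in the sources used here. No read counts could be recovered from these values, so no interval or floor that needs them is given.

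Entries of at least 200 bases were summed by symbol, 10 genes whose estimate had failed in an embryo (none of them a member) were dropped, and 21352 genes remained. Of these, 11154 with a mean of at least 1 FPKM were tested as log2(FPKM + 0.1), a scale that understates changes of low genes. The 2 *Foxf2*-/- embryos were set against the 2 controls in limma 3.58.1 (R 4.3.3) with a mean-variance trend and Benjamini-Hochberg adjustment. The variance of each gene was thereby drawn toward that of genes of similar level. Tables were handled with Python 3.11.15, pandas 2.3.3 and numpy 2.4.6, and figures were drawn with matplotlib 3.10.9.

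The members, gene lists, markers, tests and settings were chosen with earlier results of these data known. Every member with a mean of at least 1 FPKM was named, and below it the 5 with the highest mean and any that met the 1.5-fold criterion and reached 0.5 FPKM. Of each list of related genes the 3 highest were named, and *Furin*, *Vcan* and *Tnc* were added after their values were seen, as were the other members under 0.2 FPKM. Alternatives varied the pseudocount, filter, scaling, entries, fold limit, limma design and embryos.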

Additional observations from a re-analysis of the deposited data

How the results depend on the processing

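Counts of genes rest on few embryos and on the settings. *Adamts9* met the 1.5-fold criterion in 11 of 12 alternatives, all but the 2-fold limit, and *Adamts19* and *Mmp23* in 7 each. When 1 embryo was left out, *Timp1* (without the *Foxf2*+/+ control) or *Mmp9* (without *Foxf2*-/- replicate 2) met it too. The count of members that met it, 3, became 1 with a pseudocount of 1, 1 when an FPKM of 5 in at least 1 embryo was required, 1 after rescaling, 5 without a filter on low values, 5 when only the highest entry of each symbol was used and 0 at 2-fold, and lay between 1 (without *Foxf2*-/- replicate 1) and 4 when an embryo was left out. Members called by limma, 0, became 1 (*Adamts9*) with the number of null alleles as a linear term, 1 with a mean for each genotype, and between 0 and 1 when an embryo was left out. With the highest entry, *Adamts10* and *Timp1* also met the criterion as lower genes, since their reads were split between near-identical entries differently in each embryo (for *Adamts10*, 1 entry had 4.97, 5.92, 2.63 and 0.0042 FPKM while the sum was even).

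Among all genes, 156 met the criterion, against 67 with a pseudocount of 1, 49 with the filter of 5 FPKM, 639 without a filter, 291 with short entries, 278 with the highest entry, 36 at 2-fold and 219 to 571 when an embryo was left out. limma called 7 genes, against 13 with a pseudocount of 1, 0 without a filter, 27 with short entries, 1 with the highest entry, 0 without a variance trend, 15 with the linear term, 20 with genotype means and 7 to 33 when an embryo was left out. The activator, substrate and relative lists had 0 genes that met the criterion and 1 to 3 when an embryo was left out. The cause of these shifts was not tested.

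The direction of 14 of the 24 tested members held in every alternative. It reversed in 20 of the 136 alternatives run for the other 10. Reversed differences were -0.14 for *Adamts1* with the linear term, 0.072 and 0.20 for *Adamts6* after rescaling and with the linear term, and 0.076 for *Timp2* after rescaling. With 1 embryo left out, log2 differences ran from -0.26 to 0.52 for *Adamts1*, -0.22 to 0.035 for *Adamts10*, -0.090 to 0.38 for *Adamts2*, -0.20 to 0.018 for *Adamts20*, -0.33 to 0.13 for *Adamts4*, -0.064 to 0.57 for *Adamts5*, -0.28 to 0.28 for *Adamts6*, -0.033 to 0.23 for *Mmp11*, -0.27 to 0.43 for *Mmp15* and -0.19 to 0.18 for *Timp2*. In settings chosen after seeing the data, *Mmp17* stayed lower (-1.37 to -0.54) and *Adamts18* higher (0.29 to 1.60). Where 1 embryo remained in a group, its spread was taken from the other group. No paired analysis was possible, since each control genotype had 1 embryo and no pairing with a *Foxf2*-/- embryo is given.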
